A study of Mus musculus with 30 samples.

Results

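Mast cells and basophils carry the high-affinity IgE receptor on their surface, and 7 genes of that receptor and of the machinery around it were followed here in sorted blood progenitors of mouse bone marrow. They are Fcer1a, Ms4a2 and Fcer1g, which encode the alpha, beta and gamma chains of the receptor, Il1rl1, the receptor for interleukin 33, the transcription factors Gata2 and Mitf, and Hdc, the enzyme that makes histamine. They were taken by symbol, and all 7 were found among the 24421 genes of each of 5 tables. The study sorted multipotent progenitors, the cells between blood stem cells and committed lineages, from KOiMOS and WTiMOS mice to ask about the part of Bcl11a, a zinc finger repressor of transcription, in 2 kinds of progenitor: MPP3, known for myeloid output, and MPP4, known for lymphoid output. T2 and T1 cells were sequenced side by side in KOiMOS MPP3 of 3 months, WTiMOS MPP4 of 24 and of 3 months, and WTiMOS MPP3 of 24 and of 3 months, with 3 libraries in each of the 10 groups. The design text names a cell-autonomous overexpression of Bcl11a in wild-type MPP3, but the labels give no allele, promoter or strain and do not say what sets T2 apart from T1. KOiMOS mice of 24 months were not analysed here.

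The receptor is built from an alpha chain that binds IgE, a beta chain that amplifies the signal and a pair of gamma chains with the tyrosine motifs that recruit the kinase Syk. The alpha and beta chains are largely kept to mast cells and basophils, whereas the gamma chain also serves other Fc and lectin receptors of myeloid cells. Gata2 is needed by blood stem cells and again by mast cells and basophils, Mitf is known for driving mast cell genes, and the interleukin 33 receptor and histamine synthesis mark the same lineages.

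The promoters of the receptor genes are shown because GATA factors, Gata2 among them, are known to bind DNA words of the kind marked here. RefSeq sequences of the 250 bases before each annotated start (build GRCm38.p6) were found for all 7 genes, in 11 windows. The word AGATAA was searched on both strands, as were its forms with a final G (AGATAG), a leading T (TGATAA) or both changes (TGATAG). Matches are in capitals, and each sequence runs 5′ to 3′ on the strand of its gene. Fcer1a (chr1:173227230-173227479, minus strand), Ms4a2 (chr19:11623720-11623969, minus strand), Il1rl1 at its distal start (chr1:40429320-40429569, plus strand) and Fcer1g (chr1:171234350-171234599, minus strand) read as follows.
Fcer1a: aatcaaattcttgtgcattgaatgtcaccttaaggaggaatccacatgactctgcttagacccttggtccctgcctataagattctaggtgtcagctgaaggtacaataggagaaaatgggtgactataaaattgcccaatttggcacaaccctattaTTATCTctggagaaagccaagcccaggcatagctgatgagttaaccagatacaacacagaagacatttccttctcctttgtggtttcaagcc
Ms4a2: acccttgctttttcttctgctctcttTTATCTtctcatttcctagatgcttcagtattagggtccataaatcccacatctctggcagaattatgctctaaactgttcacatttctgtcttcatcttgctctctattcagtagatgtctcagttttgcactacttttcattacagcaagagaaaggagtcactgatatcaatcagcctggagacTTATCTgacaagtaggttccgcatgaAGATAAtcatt
Il1rl1: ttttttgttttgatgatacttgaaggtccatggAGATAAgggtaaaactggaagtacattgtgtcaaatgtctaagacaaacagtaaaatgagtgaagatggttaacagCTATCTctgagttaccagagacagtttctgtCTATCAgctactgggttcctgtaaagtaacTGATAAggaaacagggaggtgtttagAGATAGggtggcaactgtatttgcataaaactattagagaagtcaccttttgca
Fcer1g: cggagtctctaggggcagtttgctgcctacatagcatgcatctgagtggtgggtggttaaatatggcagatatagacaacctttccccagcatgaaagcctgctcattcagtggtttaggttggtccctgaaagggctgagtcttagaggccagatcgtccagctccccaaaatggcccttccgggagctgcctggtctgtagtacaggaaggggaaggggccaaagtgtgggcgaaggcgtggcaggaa
Ms4a2 held 3 such words, the first letters of which lay 224, 37 and 11 bases before the start. Il1rl1 held 5 at the distal start and 1 in the window of its other start. Fcer1a held 1, at 92 bases, and Fcer1g held 0. Hdc had 1, Gata2 had 0 in each of 2 windows, and the 3 windows of Mitf had 0, 1 and 2. Among 32851 promoter windows of the same length, 26.5% held at least 1 word, 1.35% at least 3 and 0.0426% at least 5. A word in the window is a description of these letters and not a bound site.

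All 7 are protein coding in GENCODE vM21 on GRCm38. Fcer1a lies on chromosome 1 at 173221284 to 173227214, Fcer1g on chromosome 1 at 171229572 to 171234365 and Ms4a2 on chromosome 19 at 11615523 to 11623719, all on the minus strand. Il1rl1 lies on chromosome 1 at 40429570 to 40465415, Gata2 on chromosome 6 at 88193891 to 88207032 and Mitf on chromosome 6 at 97807052 to 98021349, all on the plus strand. Hdc lies on chromosome 2 at 126593667 to 126619299 on the minus strand. Only Mitf overlaps another annotated gene, the pseudogene Gm15531 on the opposite strand.

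Values are TPM, which adjust for gene length and for the library's total, and the read depth is unknown. The tool behind the TPM is unstated, so levels of different genes are set side by side only roughly. Per library 10519 to 12008 genes stood at 1 TPM or above. Pearson's r between replicates ran over 0.988 to 0.998 across genes, and 0 pairs held identical values. No label ties a replicate to its own animal. The p-values thus speak only of how far the libraries scatter, and that scatter may be technical. Among markers of the gate, Kit ranged from 41.5 to 413 TPM, Cd48 from 217 to 2080 and Flt3 from 19.9 to 196 over the 10 group means. Ly6a ranged from 64.7 to 1490 and Cd34 from 99.2 to 1380. Flt3 was 146 and 87.6 in T2 and T1 of 3-month WTiMOS MPP3, and 116 and 180 of 3-month MPP4. At 24 months it was 28 and 19.9 in MPP3, and 196 and 113 in MPP4. Bcl11a averaged 68.2 ± 3.41 TPM in T2 and 70.3 ± 2.48 in T1 of KOiMOS MPP3 (limma, adjusted p = 0.579). It was higher in T2 of all 4 WTiMOS tables, at 66.7 TPM in T2 and 25.1 in T1 of 24-month MPP4, 65 and 39.4 of 3-month MPP4, 39.1 and 11.2 of 24-month MPP3, and 78.5 and 45.2 of 3-month MPP3 (adjusted p of 5.76e-06 to 0.000926). A comparison of T2 with T1 does not test a knockout, and the labels give no allele for KOiMOS. Bcl11a of KOiMOS MPP3 (68.2 TPM in T2 and 70.3 in T1) lay between T2 and T1 of 3-month WTiMOS MPP3 (78.5 and 45.2). No test was made across those tables, and a loss of Bcl11a RNA in KOiMOS cells was not shown. T2 and T1 cells also differed in sex-linked RNA. The Y-linked Eif2s3y averaged 111, 75.2 and 39.9 TPM in T2 and 0.0816, 0 and 0 in T1 of 24-month MPP4, 3-month MPP4 and 24-month MPP3, 33.4 in T2 and 66.7 in T1 of KOiMOS MPP3 (adjusted p = 7.22e-08), and 30.1 and 52.9 of 3-month WTiMOS MPP3 (adjusted p = 0.0246). In KOiMOS MPP3 all 4 Y-linked genes measured were lower in T2. In 3-month WTiMOS MPP3 Ddx3y, Kdm5d, Uty and the X-linked Xist did not pass (limma, adjusted p of 0.117 to 0.445). Xist averaged 29.3, 22.8 and 20.4 TPM in T2 and 67.9, 97 and 69.2 in T1 of 24-month MPP4, 3-month MPP4 and 24-month MPP3. In KOiMOS MPP3 it was 28.9 in T2 and 21.8 in T1. The difference in sex-linked RNA and the T2 label cannot be told apart in any of the 5 tables. In sorted bulk samples, fewer cells of a type and less RNA per cell cannot be told apart either.

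**Figure D1:**
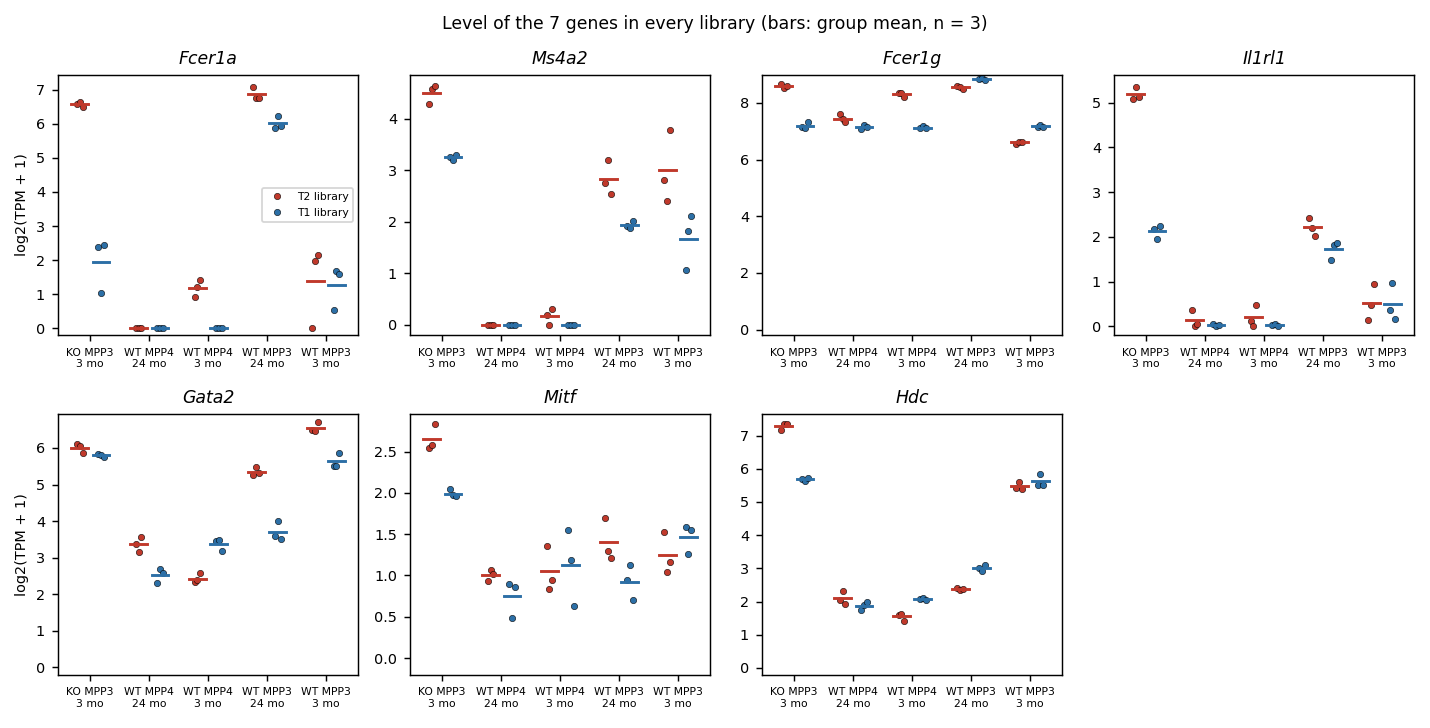
Level of each of the 7 genes in all 30 libraries, as log2(TPM + 1) on the y axis, with 1 panel per gene and the 5 tables along the x axis (KO, KOiMOS; WT, WTiMOS; mo, months). Red points are T2 libraries, blue points T1 libraries and bars the group means of 3; Fcer1a and Ms4a2 are listed at 0 in all 6 libraries of 24-month MPP4, and in KOiMOS MPP3 every gene has its T2 libraries above its T1 libraries.

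All 7 genes passed the test in the same direction in KOiMOS MPP3. The only other table in which all 7 were tested was 24-month WTiMOS MPP3, where 3 were higher and 2 lower. A gene was tested in a table where at least 3 of its 6 libraries reached 1 TPM, and called at an adjusted p below 0.05 in limma's moderated test of log2(TPM + 1), with the Benjamini-Hochberg adjustment over all genes of the table. In KOiMOS MPP3 all 7 of 7 were higher in T2 cells, where 15.9% of 12100 genes were called higher, 20.4% lower and 36.4% either way. The call of Gata2 was near the threshold (adjusted p = 0.0315) and was lost with no filter and as some single libraries were left out. The members were chosen with earlier results of these data known. In 24-month WTiMOS MPP4 3 were tested, with 2 higher and 0 lower, against 58.2% of all genes higher, 7% lower and 65.2% either way. In 3-month WTiMOS MPP4 4 were tested, with 1 higher and 2 lower, against 8.71% of all genes higher, 72.6% lower and 81.3% either way. In 24-month WTiMOS MPP3 7 were tested, with 3 higher, 2 lower and 2 not passing, against 30% and 12% of all genes and 42% either way. In 3-month WTiMOS MPP3 6 were tested, with 2 higher, 1 lower and 3 not passing, against 8.39% and 5.96%, or 14.3% either way. The median change of the tested members was log2 1.40 in KOiMOS MPP3, where that of all genes was -0.04. It was 0.29 and -0.30 in MPP4 of 24 and 3 months, where all genes had 0.43 and -0.74, and 0.49 and -0.03 in WTiMOS MPP3 of 24 and 3 months, where all genes had 0.18 and 0.10.

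The shift of the whole table bears on the WTiMOS tables. Dividing each library by its median ratio to the others brought the median of all genes to 0.06 and 0.03 in MPP4 of 24 and 3 months. Among called genes, the share that was higher in T2 was 89.3% on TPM and 46.5% after that rescaling in 24-month MPP4, and 10.7% and 55.8% in 3-month MPP4. It was 71.4% and 51% in 24-month MPP3, and 58.4% and 34.9% in 3-month MPP3. Transcript length and GC content accounted for 14.1% of the variance of the changes in 3-month MPP4 and for 6.78% in 24-month MPP4. Values after rescaling, and after removing the trend on length and GC content, are therefore given beside the MPP4 results on the 7 genes and beside the counts of the lists in MPP4. The rescaled values are changes relative to the median of the table. For the member counts above, 3-month MPP4 had 1 higher and 0 lower after rescaling (median log2 0.29). With the length trend removed it had 3 higher and 0 lower (median 0.72), so the TPM balance there turned. In 24-month MPP4 1 was higher and 0 lower after rescaling (median -0.10), and 0 and 0 with the trend removed (median 0.10).

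Fcer1a, the IgE-binding alpha chain, was listed at 0 in every library of 3 of the 4 MPP4 groups. In KOiMOS MPP3 it was 95.4, 97.8 and 88.4 TPM in T2 libraries and 4.2, 1.05 and 4.49 in T1 libraries (log2 change 4.61, SE 0.45, limma adjusted p = 0.00227). All T2 libraries stood far above all T1 libraries, and the change ranked 4 by size among the 12100 genes tested. In 24-month WTiMOS MPP4 it was listed at 0 in all 6 libraries. In 3-month WTiMOS MPP4 it was 0.886, 1.34 and 1.67 TPM in T2 libraries and listed at 0 in all 3 T1 libraries. That gene did not meet the filter there, and with no filter its difference passed (adjusted p = 0.00022). In 24-month WTiMOS MPP3 it was high in both cell types, with 135, 107 and 106 TPM in T2 and 58.1, 74.5 and 60.6 in T1 (log2 0.84, SE 0.13, adjusted p = 0.000506). The groups did not overlap, but the call was lost in a fit of all 30 libraries (adjusted p = 0.119), a fit that made a larger share of false calls on simulated data than the fits per table. In 3-month WTiMOS MPP3 the gene was low, with 0, 2.94 and 3.44 TPM in T2 and 0.447, 2.21 and 2.05 in T1. These libraries overlapped, and the difference did not pass the test (log2 0.10, 95% interval -1.06 to 1.26, adjusted p = 0.926).

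Ms4a2, the beta chain that amplifies the signal, was higher in T2 cells of all 3 MPP3 tables. KOiMOS MPP3 held 18.6, 23 and 23.7 TPM in T2 and 8.56, 8.21 and 8.78 in T1 (log2 1.25, SE 0.10, adjusted p = 1.06e-06). WTiMOS MPP3 of 24 months held 5.71, 8.17 and 4.78 in T2 and 2.76, 2.67 and 3.06 in T1 (log2 0.89, SE 0.20, adjusted p = 0.00366). WTiMOS MPP3 of 3 months held 6, 4.32 and 12.8 in T2 and 1.1, 2.55 and 3.31 in T1 (log2 1.33, SE 0.38, adjusted p = 0.0334). No T2 library overlapped a T1 library in any of the 3, but the last call rested on single libraries. It was lost without T2 replicate 3, the library at 12.8 TPM (adjusted p = 0.133), without T1 replicate 1 (0.13) or 2 (0.069), and with no filter (0.128). In MPP4 the gene was listed at 0 in all 6 libraries of 24 months and in 4 of 6 libraries of 3 months, where T2 held 0.138, 0 and 0.243 TPM.

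Fcer1g, the shared gamma chain, was present in every group, with group means of 96.6 to 463 TPM, and its changes ran both ways. In KOiMOS MPP3 it was 405, 371 and 389 TPM in T2 and 142, 138 and 159 in T1 (log2 1.40, SE 0.06, adjusted p = 3.47e-09). In WTiMOS MPP3 it was lower in T2 at both ages. At 24 months it was 383, 377 and 364 in T2 and 465, 473 and 450 in T1 (log2 -0.30, SE 0.09, adjusted p = 0.0141). That call was lost without T2 replicate 3 (adjusted p = 0.0574) and without T1 replicate 1 (0.0537) or 3 (0.0534). At 3 months it was 93.5, 98.5 and 97.8 in T2 and 142, 147 and 141 in T1 (log2 -0.57, SE 0.09, adjusted p = 0.00109), a change that kept its call as each of the 6 libraries was left out in turn. After rescaling the 2 changes were log2 -0.49 and -0.68.

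In 3-month WTiMOS MPP4 Fcer1g went against the table as a whole. It was 323, 326 and 298 TPM in T2 and 137, 144 and 137 in T1 (log2 1.17, SE 0.07, adjusted p = 2.43e-09), where the median of all genes was log2 -0.74. The change was log2 2.08 after rescaling and 1.55 after the trend on length and GC content was removed. Transcripts of Fcer1g are short, with a median of 678.5 bases, and genes under 1000 bases had a median change of log2 -0.39 there, against -0.71 for genes of 3000 bases or more. In 24-month WTiMOS MPP4 it was 194, 171 and 158 in T2 and 135, 150 and 142 in T1 (log2 0.29, SE 0.09, adjusted p = 0.0174), below the median of all genes of 0.43. This call was lost and its sign turned after rescaling (log2 -0.14, adjusted p = 0.271), and it was lost without T1 replicate 1 (adjusted p = 0.0512) or 3 (0.0511) and with the length trend removed (log2 0.10, adjusted p = 0.435).

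Il1rl1, which senses the alarm cytokine interleukin 33, was seen at 1 TPM or more in MPP3 of KOiMOS mice and of 24-month WTiMOS mice. In KOiMOS MPP3 it was 33.1, 40.1 and 33.8 TPM in T2 and 3.53, 2.87 and 3.71 in T1 (log2 3.07, SE 0.11, adjusted p = 1.15e-09). The T2 libraries lay well above the T1 libraries, and the change ranked 23 by size. In 24-month WTiMOS MPP3 it was 4.39, 3.56 and 3.06 in T2 and 1.81, 2.5 and 2.62 in T1, which did not overlap but did not pass the test (log2 0.50, 95% interval 0.08 to 0.91, adjusted p = 0.0533). Without T2 replicate 3 it passed (log2 0.59, adjusted p = 0.0482). The other 3 tables were not tested for it. Group means there were 0.108 TPM in T2 and 0.0187 in T1 of 24-month MPP4, 0.158 and 0.0185 of 3-month MPP4, and 0.473 in T2 and 0.46 in T1 of 3-month MPP3.

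Gata2, a zinc finger factor of stem cells and of the mast cell and basophil lineages, was higher in T2 cells of every MPP3 table, and most so at 24 months. In 24-month WTiMOS MPP3 it was 37, 43.4 and 39.1 TPM in T2 and 11, 14.9 and 10.3 in T1 (log2 1.66, SE 0.15, adjusted p = 8.68e-06). In 3-month WTiMOS MPP3 it was 89.2, 86.8 and 104 in T2 and 44.9, 44.2 and 57.7 in T1 (log2 0.92, SE 0.14, adjusted p = 0.000626). In KOiMOS MPP3 the step was small, with 68.4, 66 and 56.9 in T2 and 56.6, 54.8 and 52.8 in T1 (log2 0.21, SE 0.07, adjusted p = 0.0315). The groups just failed to overlap, and the call was lost without T2 replicate 1 (adjusted p = 0.127) or 2 (0.0813), without T1 replicate 2 (0.0803) or 3 (0.1), with no filter (0.0812) and in the fit of all 30 libraries (0.0568).

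In WTiMOS MPP4 the group means of Gata2 were lower than in MPP3 of the same age, and its T2 step depended on the scaling. At 24 months it was 9.41, 7.82 and 10.8 TPM in T2 and 3.92, 5.39 and 5.01 in T1 (log2 0.84, SE 0.16, adjusted p = 0.00142). This was log2 0.47 after rescaling (adjusted p = 0.0456) and 0.23 with the length trend removed, where the call was lost (adjusted p = 0.297). At 3 months it was 3.99, 4.23 and 4.97 in T2 and 10, 10.1 and 8.1 in T1 (log2 -0.95, SE 0.16, adjusted p = 6.57e-05). After rescaling that was -0.16 (adjusted p = 0.415), and with the length trend removed it was 0.03 (adjusted p = 0.862), so the call was lost under both. Transcripts of Gata2 are long, with a median of 3135 bases.

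Mitf, a basic helix-loop-helix factor of mast cells and pigment cells, stayed low throughout, with group means of 0.692 to 5.31 TPM. In KOiMOS MPP3 it was 4.81, 4.97 and 6.16 TPM in T2 and 3.12, 2.93 and 2.89 in T1, groups that did not overlap (log2 0.66, SE 0.12, adjusted p = 0.00101). No other table gave a call on TPM. In 24-month WTiMOS MPP4 the gene was not tested, at 0.909, 1.09 and 1.03 in T2 and 0.855, 0.401 and 0.82 in T1. In 3-month WTiMOS MPP4 it was 1.57, 0.792 and 0.924 in T2 and 1.92, 1.27 and 0.552 in T1 (log2 -0.07, 95% interval -0.59 to 0.45, adjusted p = 0.785), which overlapped. The sign turned after rescaling (log2 0.45, adjusted p = 0.179) and with the length trend removed, which gave a call (log2 0.90, adjusted p = 0.00904). WTiMOS MPP3 had 2.25, 1.45 and 1.31 in T2 and 0.929, 1.19 and 0.625 in T1 at 24 months (log2 0.47, 95% interval 0.03 to 0.92, adjusted p = 0.0826), groups that did not overlap. At 3 months it had 1.88, 1.06 and 1.24 in T2 and 2, 1.39 and 1.93 in T1 (log2 -0.22, 95% interval -0.91 to 0.46, adjusted p = 0.697), groups that overlapped.

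Hdc, the histidine decarboxylase that makes histamine, was abundant in MPP3 of 3 months and low elsewhere. In KOiMOS MPP3 it was 143, 163 and 161 TPM in T2 and 50.2, 48.6 and 51.8 in T1 (log2 1.61, SE 0.06, adjusted p = 1.91e-09), with every T2 library far above every T1 library. WTiMOS MPP3 of 24 months had less in T2, at 4.36, 4.12 and 4.21 against 7.13, 6.59 and 7.64 in T1 (log2 -0.63, SE 0.15, adjusted p = 0.00615). At 3 months WTiMOS MPP3 had 41.4, 47.6 and 41.2 in T2 and 44.4, 56.1 and 45 in T1, which overlapped and did not pass (log2 -0.15, 95% interval -0.46 to 0.16, adjusted p = 0.527). In 24-month MPP4 it was 3.14, 3.97 and 2.81 in T2 and 2.35, 2.75 and 2.97 in T1 (log2 0.22, 95% interval -0.16 to 0.59, adjusted p = 0.275). That sign turned after rescaling (log2 -0.10) and with the length trend removed (log2 -0.30). In 3-month MPP4 it was 2.04, 2.09 and 1.67 in T2 and 3.18, 3.31 and 3.09 in T1, a call on TPM (log2 -0.52, SE 0.17, adjusted p = 0.012) that turned to log2 0.14 after rescaling (adjusted p = 0.551). With the length trend removed it was a call in the other direction (log2 0.54, adjusted p = 0.0134).

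**Figure D2:**
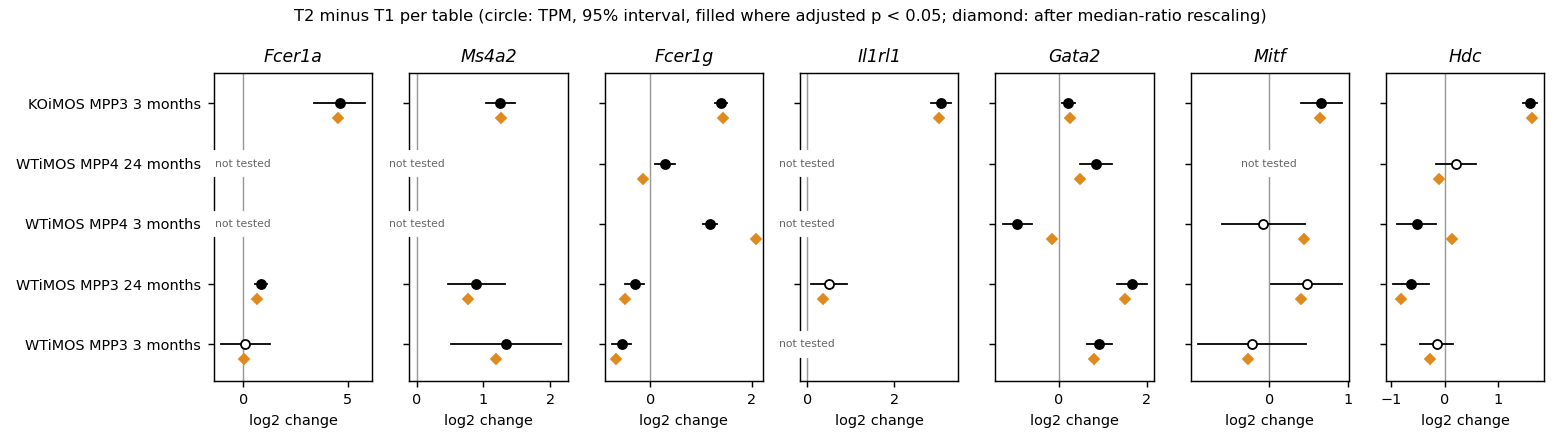
Change of each gene between T2 and T1 cells (x axis, log2, positive where higher in T2) in each table (rows), with 95% intervals; filled circles passed at an adjusted p below 0.05 and diamonds give the change after median-ratio rescaling. All 7 circles of KOiMOS MPP3 lie right of 0 and are filled; the diamonds turn the sign of Hdc in both MPP4 tables, of Mitf in 3-month MPP4 and of Fcer1g in 24-month MPP4.

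Whether the T2 step itself differed between tables was tested as the difference of the log2 changes of 2 tables, with the p adjusted over the genes tested in both. The step of 3-month MPP3 was larger in KOiMOS than in WTiMOS mice for 3 of 6 members tested and smaller for 1, where 7.65% and 14.6% of all genes were, or 22.2% either way. Fcer1a had a difference of log2 4.51 (95% interval 3.02 to 6, adjusted p = 0.00028), Fcer1g of 1.97 (1.75 to 2.19, adjusted p = 3.53e-11) and Hdc of 1.76 (1.44 to 2.09, adjusted p = 3.02e-07). Gata2 went the other way, with log2 -0.71 (-1.03 to -0.39, adjusted p = 0.00232). For Ms4a2 no difference was detected (log2 -0.08, 95% interval -0.92 to 0.76, adjusted p = 0.909), and it lay at 0.07 after rescaling. Mitf had 0.88 (0.17 to 1.6, adjusted p = 0.0732), which passed after rescaling (adjusted p = 0.0484) and with no filter (0.0465), and missed the threshold with the length trend removed (0.0597) and when 0.1 was added in place of 1 (0.15). Il1rl1 was not tested, and with no filter it had log2 3.05 (adjusted p = 0.000304). The 5 tables may be separate batches, and batch and genotype cannot be told apart. The same holds for batch and age, and for batch and kind of progenitor, in the differences that follow.

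Between 24 and 3 months the step of WTiMOS MPP3 differed for 1 of 6 members tested, where 11.8% of all genes had a higher step at 24 months, 6.36% a lower one and 18.2% either. Gata2 had a larger step at 24 months (log2 0.74, 95% interval 0.32 to 1.16, adjusted p = 0.0128), a call lost without T1 replicate 3 of 24 months (adjusted p = 0.0584) and with the length trend removed (log2 0.49, adjusted p = 0.0541). Fcer1a had 0.74 (-0.45 to 1.92, adjusted p = 0.4) and Hdc -0.48 (-0.91 to -0.05, adjusted p = 0.111). With the length trend removed Hdc passed (log2 -0.65, adjusted p = 0.0225). In WTiMOS MPP4 all 3 members tested differed, 2 higher and 1 lower, where 79.2% of all genes were higher, 7.81% lower, 87% either way and the median was log2 1.20. Fcer1g had a smaller step at 24 months (log2 -0.89, adjusted p = 3.05e-07), which was -2.22 after rescaling. Gata2 had a larger one (1.78, adjusted p = 1.09e-07), which was 0.63 after rescaling (adjusted p = 0.0231) and lost its call with the length trend removed (0.20, adjusted p = 0.471). Hdc was 0.74 on TPM (adjusted p = 0.00684), -0.24 after rescaling (adjusted p = 0.44) and -0.84 with the length trend removed (adjusted p = 0.00467), so its direction depended on the scaling.

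Between MPP4 and MPP3 of 3-month WTiMOS mice 2 of 4 members tested differed, 1 higher and 1 lower, where 7.47% and 64.2% of all genes did, or 71.7% either way. Fcer1g had log2 1.74 (95% interval 1.51 to 1.97, adjusted p = 2.84e-12) and Gata2 -1.87 (-2.29 to -1.45, adjusted p = 1.31e-08). After rescaling these were 2.76 and -0.97. Hdc had -0.37 (adjusted p = 0.137), which turned to 0.40 after rescaling and was called in the other direction with the length trend removed (0.79, adjusted p = 0.00368). Mitf had 0.15 (95% interval -0.67 to 0.97, adjusted p = 0.746), and it too was called with the trend removed (1.21, adjusted p = 0.0192). At 24 months all 3 members tested differed, 2 higher and 1 lower, where 18% and 4.59% of all genes did, or 22.6% either way. Fcer1g had log2 0.59 (adjusted p = 0.00191), a call lost after rescaling (0.35, adjusted p = 0.0505). Gata2 had -0.82 (adjusted p = 0.0109), or -1.02 after rescaling, and Hdc 0.85 (adjusted p = 0.0108), or 0.71 after rescaling (adjusted p = 0.0347). With the length trend removed Hdc missed the threshold (0.59, adjusted p = 0.0653). The comparisons share tables, among them 3-month WTiMOS MPP3, so they are not independent of each other. The steps of 5 sex-linked genes differed too, with 4 higher and 1 lower between the ages in MPP3 and 4 and 0 in MPP4. For MPP4 against MPP3 they were 4 and 1 at 3 months and 5 and 0 at 24 months. For KOiMOS against WTiMOS they were 0 and 0. Outside that last comparison, age or kind of progenitor cannot be told apart from the difference in sex-linked RNA. Among genes with a called difference, the share with a larger step was 34.4% on TPM and 58.8% after rescaling for KOiMOS against WTiMOS, and 91% and 49.8% for 24 against 3 months in MPP4. For MPP4 against MPP3 it was 79.7% and 42.1% at 24 months, and 10.4% and 54.7% at 3 months.

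Across the 10 groups each gene had its own order of levels, given here with no test because the tables may be separate batches. Fcer1a was highest in T2 of 24-month WTiMOS MPP3 (116 ± 16.5 TPM, n = 3 in each group), then in T2 of KOiMOS MPP3 (93.8 ± 4.89) and in T1 of 24-month WTiMOS MPP3 (64.4 ± 8.84), with no overlap between neighbours. Then came T1 of KOiMOS MPP3 (3.25 ± 1.91), T2 and T1 of 3-month WTiMOS MPP3 (2.13 ± 1.86 and 1.57 ± 0.977) and T2 of 3-month MPP4 (1.3 ± 0.395), each overlapping the next. The remaining 3 groups were at 0. Ms4a2 led in T2 of KOiMOS MPP3 (21.8 ± 2.75), followed by T1 of KOiMOS MPP3 (8.51 ± 0.285) and T2 of WTiMOS MPP3 at 3 and 24 months (7.72 ± 4.51 and 6.22 ± 1.75), which overlapped. T1 of WTiMOS MPP3 at 24 and 3 months had 2.83 and 2.32, and MPP4 at most 0.127. Fcer1g led in T1 of 24-month WTiMOS MPP3 (463 ± 11.9), and T2 of KOiMOS MPP3 (388 ± 16.8) overlapped T2 of 24-month WTiMOS MPP3 (375 ± 9.83).

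Il1rl1 was highest in T2 of KOiMOS MPP3 (35.7 ± 3.86), and the next groups, T2 of 24-month WTiMOS MPP3 (3.67 ± 0.674) and T1 of KOiMOS MPP3 (3.37 ± 0.44), overlapped each other. Gata2 led in T2 of 3-month WTiMOS MPP3 (93.2 ± 9.06), ahead of T2 and T1 of KOiMOS MPP3 (63.8 ± 6.08 and 54.7 ± 1.89). T1 of 3-month WTiMOS MPP3 (48.9 ± 7.62), which overlapped T1 of KOiMOS MPP3, was followed by T2 and T1 of 24-month WTiMOS MPP3 (39.8 ± 3.28 and 12 ± 2.46), and the 4 MPP4 groups averaged 4.4 to 9.41. Mitf led in T2 and T1 of KOiMOS MPP3 (5.31 ± 0.742 and 2.98 ± 0.118), and each of the other 8 groups overlapped its neighbour. Hdc led in T2 of KOiMOS MPP3 (156 ± 10.9), then in T1 of KOiMOS MPP3 and in T1 and T2 of 3-month WTiMOS MPP3 (50.2, 48.5 and 43.4), each overlapping the next. In 24-month WTiMOS MPP3 Hdc had 4.23 ± 0.117 in T2 and 7.12 ± 0.524 in T1.

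The chains of the IgE receptor were not at a fixed ratio across the groups. Ratios of group mean TPM of Fcer1g to Fcer1a were 4.14 in T2 and 45.1 in T1 of KOiMOS MPP3. They were 3.23 and 7.19 in T2 and T1 of 24-month WTiMOS MPP3, and 45.4 and 91.3 in T2 and T1 of 3-month WTiMOS MPP3. Ratios of Fcer1a to Ms4a2 were 4.31 in T2 and 0.381 in T1 of KOiMOS MPP3. In T2 and T1 of WTiMOS MPP3 they were 18.7 and 22.8 at 24 months, and 0.275 and 0.677 at 3 months. The ratios of 3-month WTiMOS MPP3 rest on low Fcer1a means of 2.13 ± 1.86 TPM in T2 and 1.57 ± 0.977 in T1. Those 2 groups overlapped and 1 library was at 0, so the T2 and T1 ratios there are uncertain. Fcer1a was also low in T1 of KOiMOS MPP3, at 3.25 ± 1.91. By group means, T2 of 24-month WTiMOS MPP3 held 116 TPM of the alpha chain and 6.22 of the beta chain, and T2 of KOiMOS MPP3 held 93.8 and 21.8. Across the 10 group means on the log2 scale, Pearson's r was 0.79 between Fcer1a and Fcer1g, 0.72 between Fcer1a and Ms4a2 and 0.24 between Ms4a2 and Fcer1g. Ms4a2 ran closer to Gata2 (0.88), Il1rl1 (0.84) and Hdc (0.84). Fcer1g had -0.14 with Gata2 and -0.11 with Hdc. These values describe 10 groups that share tables.

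The wider genes of mast cells and basophils were described by lists. Of 12 proteases of their granules, 10 were tested in KOiMOS MPP3, where 7 were higher and 0 lower in T2 (median log2 2.52). The tryptase Tpsb2 was 1860 ± 70.6 TPM in T2 and 62.2 ± 5.76 in T1, the protease Mcpt4 was 491 ± 30.5 and 17.4 ± 3.98, and the chymase Cma1 was 1070 ± 39.4 and 44.5 ± 17.3. Tryptases have near-identical copies, and the handling of reads shared between them is unstated. In 24-month MPP4 all 4 tested were lower (median log2 -2.29), among them Cpa3 at 16 ± 1.11 in T2 and 119 ± 5.33 in T1, while 8 of the 12 were listed at 0 in every library of each group. All 4 were lower under both scalings too. In 3-month MPP4 1 was higher and 2 lower of 3 tested, with Mcpt8, a protease of basophils, at 41.8 ± 3.07 in T2 and 15.3 ± 0.97 in T1. That split was 2 higher and 0 lower after rescaling and 1 higher and 1 lower with the length trend removed. At 24 months WTiMOS MPP3 had 5 higher and 4 lower of 9, so the list split: Tpsb2 was 32.6 ± 9.14 in T2 and 1.49 ± 1.24 in T1, and Cma1 184 ± 21.5 and 20 ± 4.09, but the summed level of the list was 1520 ± 40.3 in T2 and 5730 ± 278 in T1. The sum includes Ctsg, a protease of neutrophils as well, so it does not stand for mast cells and basophils alone. After rescaling, the counts were again 5 higher and 4 lower. Among the lower ones there were Cpa3 (log2 -2.6, limma adjusted p = 1.53e-08) and Mcpt8 (log2 -0.984, adjusted p = 4.55e-05). WTiMOS MPP3 of 3 months had 0 higher and 2 lower of 6, Cpa3 (135 ± 12.2 in T2 and 235 ± 12.7 in T1) and Ctsg (532 ± 113 and 945 ± 109). The summed level there was 808 ± 137 in T2 and 1210 ± 124 in T1, most of it Ctsg.

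Surface molecules of the same cells were 8 higher and 3 lower of 15 tested in KOiMOS MPP3. Mrgprb2, a receptor of mast cells for basic peptides, was 44.3 ± 5.11 TPM in T2 and 1.82 ± 0.36 in T1, the basophil and mast cell receptor Cd200r3 was 24.6 ± 1.59 and 2.4 ± 0.769, and the adenosine receptor Adora3 was 9.81 ± 3.07 and 0.464 ± 0.244. At 24 months WTiMOS MPP3 had 8 higher and 3 lower of 13, with the granule tetraspanin Cd63 at 775 ± 47.2 in T2 and 146 ± 22.1 in T1, and the activation marker Cd69 at 170 ± 20.2 and 792 ± 49.4. At 3 months it had 5 higher and 2 lower of 12, with Cd63 at 863 ± 46.5 and 314 ± 16.3. MPP4 had 6 higher and 2 lower of 10 at 24 months, or 4 and 3 after rescaling and 2 and 4 with the length trend removed. In MPP4 of 3 months 0 were higher and 5 lower of 8, or 3 and 1 under both scalings, so these counts turned with the scaling. Mrgprb2 and Hrh4 were listed at 0 in all 12 of its libraries.

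Genes of histamine and lipid mediators were 7 higher and 6 lower of 14 in KOiMOS MPP3. Alox5, which starts leukotriene synthesis, was 50.8 ± 3.35 TPM in T2 and 5.66 ± 0.802 in T1, and Tph1, which makes serotonin, was 4.99 ± 0.384 and 0.34 ± 0.302. At 24 months WTiMOS MPP3 had 8 higher and 2 lower of 13, with the prostaglandin synthase Ptgs2 at 3.76 ± 1.03 in T2 and 26.8 ± 3.77 in T1. At 3 months it had 5 higher and 1 lower of 13, with Slc18a2, which loads histamine into granules, at 73.5 ± 14.8 and 31.5 ± 5.37. In MPP4 8 were higher and 1 lower of 12 at 24 months, or 3 and 3 after rescaling and 3 and 2 with the length trend removed. At 3 months 3 were higher and 8 lower of 12, or 4 and 0 after rescaling and 3 and 3 with the trend removed.

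Downstream of the receptor, 20 kinases, adaptors and phosphatases gave 3 higher and 7 lower in KOiMOS MPP3, with a median of log2 -0.12. The adaptor Lat was 58.8 ± 5.14 TPM in T2 and 134 ± 7.12 in T1, and the kinase Prkcb 2.16 ± 0.486 and 0.493 ± 0.123. In WTiMOS MPP3 6 were higher and 2 lower of 19 at 24 months. That balance depended on the scaling, with 5 and 5 after rescaling and 5 and 7 with the length trend removed. The largest called changes there were those of the adaptor Lat2 (109 ± 8.18 in T2 and 34.2 ± 5.66 in T1) and Syk, the kinase the gamma chain recruits (27.2 ± 2.55 and 10.4 ± 1.2). At 3 months 2 were higher and 1 lower of 19, or 2 and 3 after rescaling and 2 and 2 with the trend removed. In MPP4 the list followed its tables, with 15 higher and 1 lower of 20 at 24 months (median log2 0.50, where that of all genes was 0.43) and 0 higher and 19 lower at 3 months (median -1.04, where that of all genes was -0.74). After rescaling these were 4 higher and 1 lower and 2 higher and 8 lower, and with the length trend removed 4 and 1 and 4 and 6. The interleukin 33 pathway around Il1rl1 gave 2 higher and 6 lower of 15 in KOiMOS MPP3. Its cytokine genes Il6 (3.77 ± 0.689 TPM in T2 and 0.404 ± 0.367 in T1) and Il4 (5.75 ± 0.398 and 3.15 ± 1.07) were the 2 that were higher, and the ligand gene Il33 was listed at 0. In WTiMOS MPP3 it gave 6 higher and 1 lower of 15 at 24 months, with Il4 at 7.45 ± 0.648 and 0.903 ± 0.89, and 1 higher and 0 lower of 13 at 3 months. In MPP4 it gave 12 higher and 0 lower of 14 at 24 months (median log2 0.59) and 0 higher and 12 lower of 13 at 3 months (median -0.76), where 58.2% of all genes were higher and 72.6% lower. After rescaling 3 were higher and 0 lower at 24 months and 1 higher and 3 lower at 3 months, so these counts largely followed the tables.

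A list of 18 Fc, lectin and cytokine receptors, many of which signal through the gamma chain, gave 1 higher and 2 lower of 11 tested in KOiMOS MPP3. The one that was higher was Fcgr3, a low-affinity receptor for IgG that needs the gamma chain, at 104 ± 3.22 TPM in T2 and 36.6 ± 3.87 in T1. WTiMOS MPP3 gave 4 higher and 4 lower of 11 at 24 months and 2 higher and 2 lower of 11 at 3 months, where Fcgr3 was 51.9 ± 17.4 in T2 and 12.1 ± 0.686 in T1. Fcgr2b, an inhibitory IgG receptor with a motif of its own, was lower in T2 of all 4 WTiMOS tables on TPM, from 40 ± 3.41 in T2 and 91.2 ± 12.8 in T1 of 24-month MPP3 to 10.9 ± 1.29 and 33.7 ± 4.14 of 3-month MPP4. It was also lower in all 4 under both scalings, at log2 -1.35 and -0.69 in those 2 tables after rescaling. The whole list in MPP4 gave 2 higher and 3 lower of 9 at 24 months, or 1 and 3 under both scalings, and 1 higher and 5 lower of 9 at 3 months, or 4 and 2 under both. Transcription factors of the mast, basophil and megakaryocyte-erythroid lines other than Gata2 and Mitf gave 4 higher and 5 lower of 19 in KOiMOS MPP3, with Gata1 at 29.8 ± 2.86 in T2 and 16.7 ± 1.1 in T1 and the inhibitor Id2 at 53.9 ± 1.83 and 7.89 ± 1.25. They gave 10 higher and 4 lower of 21 and 3 higher and 5 lower of 19 in WTiMOS MPP3 of 24 and 3 months, and 9 higher and 3 lower of 19 and 1 higher and 16 lower of 20 in MPP4 of 24 and 3 months. After rescaling the MPP4 counts were 5 and 4 and 6 and 2, and with the length trend removed 4 and 4 and 4 and 5.

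**Figure D3:**
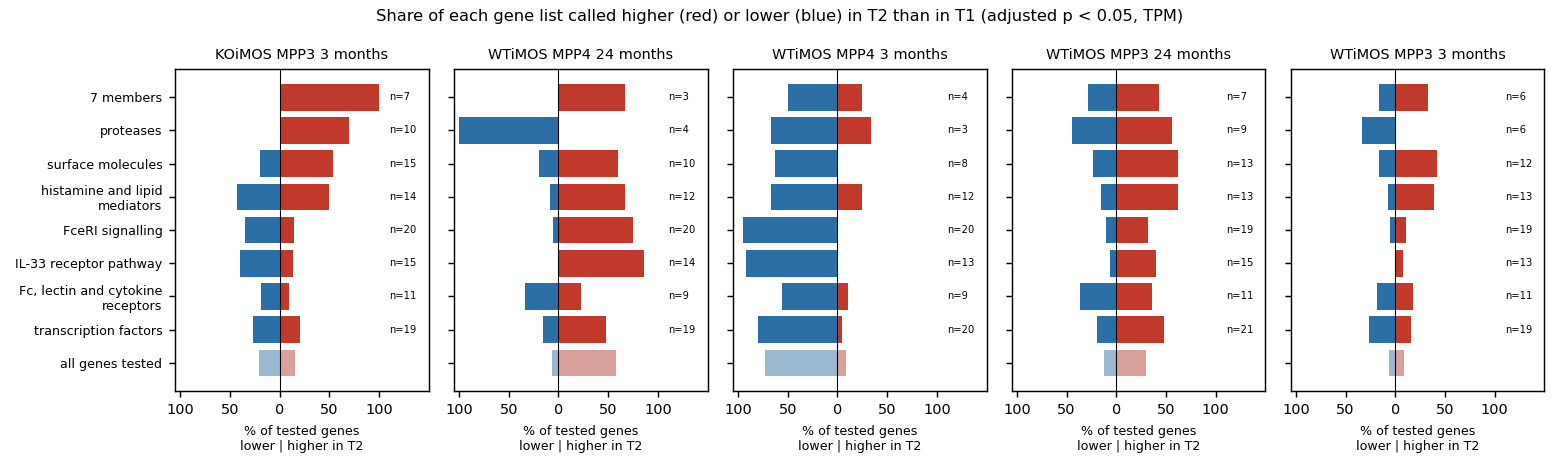
Share of the tested genes of each list called higher (red, right) or lower (blue, left) in T2 than in T1 cells on the TPM scale, per table, with the number tested at the right and all genes tested in the lowest row. In KOiMOS MPP3 the members and the proteases stand to the right while the signalling genes stand mostly to the left; in the MPP4 tables most lists follow the row of all genes, whose balance turns with rescaling.

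Markers of other cell types moved in the same tables, and their part in the results on the 7 genes was not tested. In KOiMOS MPP3 erythroid markers were 11 higher and 0 lower of 15, and their summed level over 16 genes was 2660 to 2800 TPM in T2 libraries and 914 to 991 in T1 libraries. Neutrophil and monocyte markers there were 10 higher and 2 lower of 16, with sums of 8770 to 9240 in T2 and 5090 to 5350 in T1. WTiMOS MPP3 of 24 months had erythroid markers 9 higher and 1 lower of 13 (1480 to 1640 and 357 to 450 TPM) and neutrophil and monocyte markers 2 higher and 12 lower of 17 (3170 to 3570 and 13800 to 15600). Eosinophil markers, of a lineage that shares granule genes with basophils, summed to 23.9 to 45.7 TPM in T2 and 35 to 47 in T1 of KOiMOS MPP3. They summed to 66.7 to 73.5 and 20.6 to 25.4 in 24-month WTiMOS MPP3, with Ear1, Ear6 and Alox15 at 0 in T2, and 30.5 to 472 and 15 to 34.6 in 3-month WTiMOS MPP3, where 1 was higher and 0 lower of 5. At 3 months WTiMOS MPP3 had erythroid markers 6 higher and 0 lower of 14 (1600 to 1930 TPM in T2 and 622 to 740 in T1), or 3 and 0 under both scalings, and neutrophil and monocyte markers 4 higher and 8 lower of 18 (7310 to 9450 and 10500 to 11800). MPP4 had neutrophil and monocyte markers 4 higher and 8 lower of 18 at 24 months (1710 to 1960 and 3080 to 3300), or 4 and 11 under both scalings. At 3 months they were 1 higher and 15 lower of 17 (1230 to 1280 and 2660 to 2670), or 4 and 7 after rescaling and 1 and 10 with the length trend removed. Erythroid markers in MPP4 were 4 higher and 1 lower of 7 at 24 months (809 to 961 and 459 to 472) and 4 higher and 2 lower of 8 at 3 months (634 to 702 and 592 to 682), or 4 and 2 under both scalings at 24 months, and 5 and 0 after rescaling and 4 and 0 with the trend removed at 3 months. B cell markers were 0 higher and 7 lower of 9 in KOiMOS MPP3 (72.9 to 86.1 and 122 to 138 TPM), with Pax5 and Ms4a1 at 0 in T2. WTiMOS MPP3 had 1 higher and 7 lower of 10 at 24 months (202 to 217 and 662 to 725). At 3 months 0 were higher and 10 lower of 10 (246 to 323 and 1010 to 1280). MPP4 had 1 higher and 1 lower of 7 at 24 months, or 1 and 4 under both scalings. Its 3-month counts were 3 and 2 of 7, or 5 and 1 after rescaling and 4 and 1 with the trend removed.

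The genes whose levels ran most like each member were found by Pearson's r of log2(TPM + 1) over the 10 group means, among 10172 candidates that reached 5 TPM in a group. Fcer1a was most like Il6 (0.94), Tspo2 (0.94) and Cd200r3 (0.93). Ms4a2 was most like Slc18a2 (0.97), Fcgr3 (0.96) and Mfsd2b (0.96). Fcer1g was most like Tyrobp (0.89), which encodes another adaptor with a tyrosine motif and averaged 93.8 to 583 TPM, then Pf4 (0.81) and Hist1h2ak (0.79). Il1rl1 ran with Mrgprb2 (0.96), Mcpt-ps1 (0.94) and Cd200r3 (0.94), which all had their highest mean in T2 of KOiMOS MPP3. Gata2 ran with Scarf1, Pelo and Rad23b (0.97 each), Mitf with Col4a2 (0.95), Ccp110 (0.95) and Cyp11a1 (0.95), and Hdc with Ubtd1 (0.99), Dpp9 (0.98) and Spns1 (0.98). The best of 10172 candidates over 10 points is high by selection, and these values are a description.

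**Figure D4:**
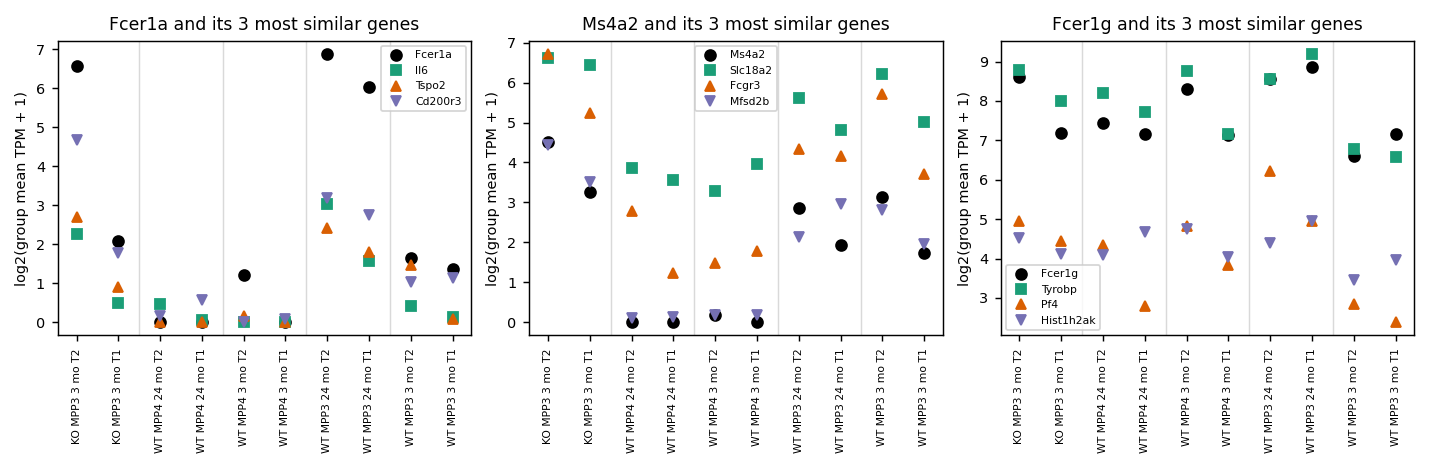
Mean level of Fcer1a, Ms4a2 and Fcer1g (black circles) and of the 3 genes most like each (coloured symbols) in the 10 groups along the x axis, as log2(group mean TPM + 1). Fcer1a and Ms4a2 are at or near 0 in the 4 MPP4 groups, while Fcer1g and Tyrobp stay above 6 on this scale in all 10 groups.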

How the data were processed

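RNA of 30 libraries from sorted bone marrow progenitors was analysed from 5 tables of TPM per gene that the authors deposited. Per the labels' protocols, cDNA was made and amplified with a low-input kit. Per the submitters' processing notes, HISAT2, StringTie, featureCounts and DESeq2 were used with mm10. No source used here states versions, the tool behind the TPM or the depth. Column names matched the labels, and 0 columns were left unmapped.

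TPM were taken as log2(TPM + 1), and each table was fitted alone in R 4.3.3 with limma 3.58.1 (trend and robust moderation, 4 residual degrees of freedom) over genes that reached 1 TPM in 3 or more of 6 libraries. Fold changes on this scale understate changes of low genes. P-values were adjusted by Benjamini-Hochberg over the table and called below 0.05. Differences of steps subtracted the changes of 2 tables, with Satterthwaite degrees of freedom. On simulated data the fits per table and their differences made false calls at somewhat above the nominal share in most comparisons. The fit of all 30 libraries made a larger share in every comparison, so its p-values are given only where it loses a call. The members and lists were chosen with earlier results of these data known. Genes named were the 7 members, up to 3 called genes of largest change per list and table, the 3 genes most like each member (predicted genes left out), Bcl11a and sex-linked genes. Alternatives were leaving out each library in turn, blocking on the replicate number, 1 fit of all 30 libraries, no filter, rescaling by median ratios, adding 0.1 in place of 1 and, added after seeing the data, removal of the trend on length and GC content.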

Additional observations from a re-analysis of the deposited data

Results flagged for a closer look

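The T2 minus T1 step of a gene differed between tables, by a test of the difference itself, in 13 cases. Between KOiMOS and WTiMOS MPP3 of 3 months the step of Fcer1a differed by log2 4.51, that of Fcer1g by 1.97, that of Hdc by 1.76 and that of Gata2 by -0.71. Between 24 and 3 months the step of Gata2 differed by 0.74 in MPP3 and by 1.78 in MPP4, and in MPP4 that of Fcer1g by -0.89 and that of Hdc by 0.74. The sign of the last turned after rescaling (log2 -0.24) and with the length trend removed (-0.84). Gata2 in MPP4 was 0.63 after rescaling and lost its call with the trend removed (0.20), and Gata2 in MPP3 lost it with the trend removed (0.49) and without T1 replicate 3 of 24 months (0.64). Between MPP4 and MPP3 the step of Fcer1g differed by 1.74 at 3 months and 0.59 at 24 months, that of Gata2 by -1.87 and -0.82, and that of Hdc by 0.85 at 24 months. By the same test of the difference, Fcer1g at 24 months lost its call after rescaling (0.35, adjusted p = 0.0505) and Hdc with the trend removed (0.59, adjusted p = 0.0653).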

How the results depend on the processing

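Numbers of genes called moved by over 1.5 times under 3 settings. With no filter 1056 genes were called in 3-month WTiMOS MPP3, against 1682 with it. After median-ratio rescaling and with the trend on length and GC content removed (chosen after seeing the data), 5820 and 5682 were called in 3-month MPP4, against 9176 on TPM, and 3925 and 3592 in 24-month MPP4, against 7407. The steps differed for 5683 and 5464 genes between 24 and 3 months in MPP4, against 9640 on TPM, and for 4390 and 4238 between MPP4 and MPP3 at 3 months, against 7726. Of the 7 members, rescaling left 1 called in each MPP4 table, and removal of the trend left 0 in 24-month MPP4 and gave 4 for MPP4 against MPP3 at 3 months.

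Signs turned after rescaling for Mitf (log2 0.45) and Hdc (0.14) in 3-month MPP4, Fcer1g (-0.14) and Hdc (-0.10) in 24-month MPP4, Ms4a2 between KOiMOS and WTiMOS (0.0745), and Hdc between 24 and 3 months in MPP4 (-0.24) and between MPP4 and MPP3 at 3 months (0.40). With the trend removed they turned for Gata2 (0.0349), Mitf (0.90) and Hdc (0.54) in 3-month MPP4 and for Hdc in 24-month MPP4 (-0.30), between 24 and 3 months (-0.84) and between MPP4 and MPP3 at 3 months (0.79). Adding 0.1 in place of 1 turned Fcer1a in 3-month WTiMOS MPP3 (-0.45). The cause was not tested.

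Leaving out 1 library each gave 3393 to 4395 genes and 6 to 7 members called in KOiMOS MPP3, 6403 to 7252 and 1 to 2 in 24-month MPP4 (1 without T1 replicate 1 or 3), 8660 to 9175 and 3 to 3 in 3-month MPP4, 3492 to 5144 and 4 to 5 in 24-month WTiMOS MPP3, and 950 to 2191 and 2 to 3 in 3-month WTiMOS MPP3 (950 without T1 replicate 1 and 1011 without T1 replicate 2). For the differences it gave 1693 to 2866 genes and 4 to 4 members for KOiMOS against WTiMOS, 1290 to 2340 and 0 to 1 for the ages in MPP3 (1290 and 0 without 24-month T1 replicate 3), and 9454 to 9621 and 3 to 3 for the ages in MPP4. For MPP4 against MPP3 it gave 1563 to 2958 and 3 to 3 at 24 months (1563 without MPP3 T1 replicate 3 of 24 months) and 7189 to 7805 and 2 to 2 at 3 months. Differences that did not pass ranged over both signs for Fcer1a in 3-month WTiMOS MPP3 (-0.29 to 0.79), Ms4a2 between KOiMOS and WTiMOS (-0.38 to 0.31), and Mitf in 3-month MPP4 (-0.32 to 0.14) and between MPP4 and MPP3 at 3 months (-0.10 to 0.36).

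No pairing of samples by replicate number was seen. Correlations of deviations were -0.2 to 0.13 for equal numbers and -0.14 to 0.16 for unlike ones. With 3 libraries in each group this does not exclude a pairing, which the labels do not state. With the replicate block 4133 genes were called in KOiMOS MPP3, 6807 and 9235 in MPP4 of 24 and 3 months, and 4432 and 1830 in WTiMOS MPP3 of 24 and 3 months, and no member's call changed. Because read depth is unknown, what it limits for genes near 1 TPM could not be given.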
